A study of Zea mays with 16 samples.

Results

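Leaves of the maize inbred M37W were compared after chilling at 4 °C and at the control temperature of 26 °C, in 4 of the 16 libraries of a study of 4 lines. The 4 libraries were taken by their labelled line, and M37W was picked with the knowledge that its replicates were the tightest of the series. They were 2 chilled libraries (replicates 1 and 2) and 2 control libraries (replicates 1 and 2). M37W is one of the founder inbreds of the maize nested association mapping panel, and the labels give both temperature groups this single genotype, with no transgene or other agent. The inbreds B73, B104 and CML333, each with 2 chilled and 2 control libraries at the same temperatures, make up the other 12 libraries, and B73 is used for comparison. The day length was 14 h and the night 10 h for all plants, with an irradiance of 250 µmol photons m-2 s-1. The labels do not state the length of the cold treatment, the age of the plants, the leaf position or any pooling. Nothing in the labels says that replicates were separate plants, so the p-values measure the spread between these libraries only.

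Maize is a plant of warm climates, and its leaves are injured by temperatures that cool-season cereals tolerate. Cold slows the enzymes of carbon fixation more than the capture of light, so the thylakoid membrane of the plastid, where the photosystems sit, is a known site of chilling injury. Plastids and mitochondria keep small genomes of their own. These encode a few subunits of the photosynthetic and respiratory complexes, together with ribosomal and transfer RNAs and proteins for their expression, while most genes that respond to cold lie in the nucleus. Poly(A) tails on organelle transcripts are short-lived and mark RNA for decay, unlike those of nuclear messengers.

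Library preparation used QuantSeq, in which cDNA synthesis starts at the poly(A) tail and sequencing covers the 3′ end of each transcript. The chilled M37W libraries held 1953922 and 2028974 counts and the control libraries 2024851 and 2206293, against 1780344 to 2705564 in the other 12 libraries. Levels are given as CPM, the count of a gene scaled to a common library total. A count of 3, taken as the floor of detection, stood for 1.36 to 1.54 CPM in these libraries, and intervals and floors cover counting error only. Nuclear gene models made up 99.6% and 99.7% of counts in the chilled libraries and 99.7% and 99.8% in the controls. The median absolute difference on the log2(CPM + 1) scale was 0.27 between the chilled and 0.26 between the control libraries, a closeness that entered the choice of the line. The means of the temperatures differed by a median of 0.50 on the same scale. Nuclear IDs are not paired with names in the files, so leaf cell types could not be checked through their markers (0 of the marker genes fixed by symbol were tested) and pathways could not be described.

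Of the IDs tested in M37W leaves, 31.8% were called different between the chilled and the control libraries. Of 13257 IDs tested, 2334 rose and 1884 fell at an adjusted p under 0.05 (Benjamini-Hochberg) in edgeR's quasi-likelihood test of the 4 libraries. That is 4218 in all, with 17.6% of the tested IDs called higher and 14.2% called lower. With library totals in place of TMM scaling (trimmed mean of M-values) the balance turned, with 2029 higher and 2195 lower. Under TMM scaling, the median log2 fold change was 1.34 among the genes that rose and -1.16 among those that fell. Among the risers, 682 (29.2%) changed at least 4-fold and 134 at least 16-fold, while 258 (13.7%) and 21 of the genes that fell did so. DESeq2 called 2475 genes on the same libraries, of which 1483 rose and 992 fell. An edgeR fit of all 16 libraries, where the spread of other lines enters, called 71 of 17410 IDs for M37W. The share called depends on the spread between replicates. M37W was picked with its tight replicates known, so the choice of line favours a high share. In a bulk leaf sample, a change in the share of a cell type and a change of RNA per cell cannot be told apart.

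The response was spread over genes of every abundance. With the tested IDs in 5 bins of equal size, the bin of lowest level (2.76 to 9.03 CPM on average over the 4 libraries) had 14.2% that rose and 9.54% that fell. In the most abundant bin (67.7 to 23268 CPM), 27.3% rose and 20.1% fell. The smallest change called differed between the bins and was 1.16 on the log2 scale in the lowest bin and 0.37 in the highest. The libraries were also redistributed at the top. The 50 most abundant IDs of the control took 16.2% and 16.3% of counts in the chilled libraries, against 21.6% and 22.6% in the controls. The 50 most abundant of the chilled libraries took 20.3% and 20.2% of counts there, against 16.2% and 16.7% in the controls, and 26 IDs were on both lists. Both lists were chosen on these libraries, so their direction is a description.

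**Figure D1:**
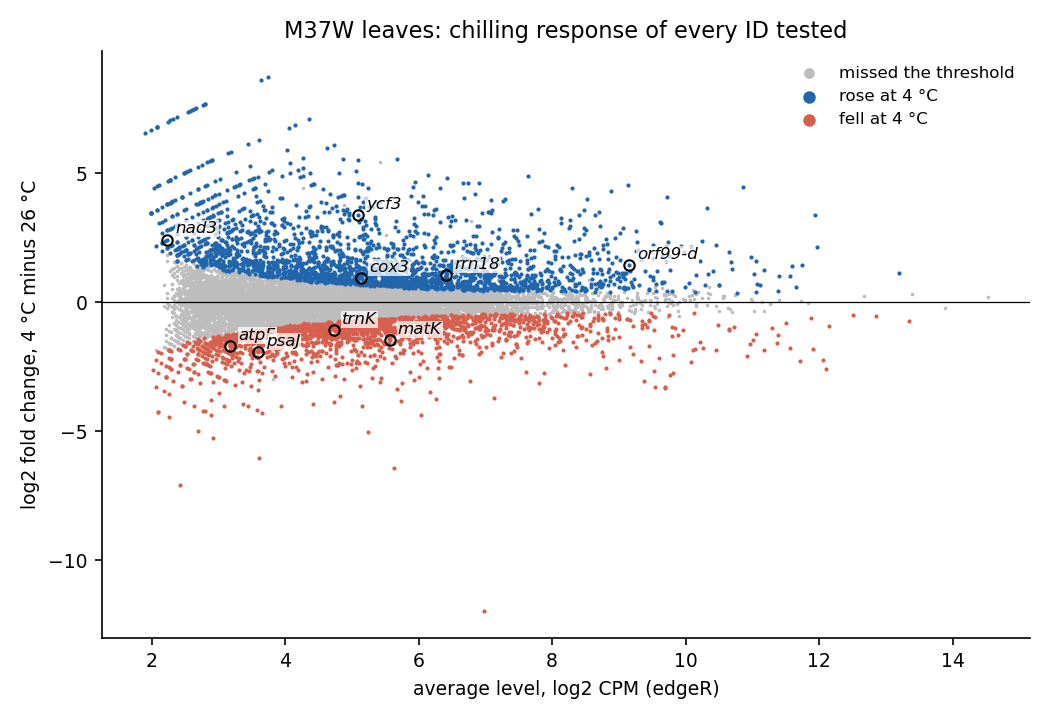
Log2 fold change (4 °C minus 26 °C) against the average level in log2 CPM for each of the 13257 IDs tested in M37W leaves. Blue points rose (2334), red points fell (1884) and grey points missed the threshold; circles mark the 9 organelle genes that passed it.

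Few genes passed a strict rule for on and off switching, which allowed a stray count. At the threshold of at most 1 count over both libraries of one temperature and at least 10 CPM on average at the other, 24 nuclear genes were on only when chilled and 4 only in the control. Of the 24, 9 had no control count, and 1 of the 4 had no chilled count. Both sets were chosen on these counts, so their direction is fixed by the choice. B73, the reference inbred of maize, had 30 and 14 such genes by the same rule.

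The highest fitted log2 fold changes among the nuclear gene models belonged to Zm00001d052154 and Zm00001d011832, which had no count in control leaves. At 0 counts that rank depends on the prior count of the fit, and the highest lower bound among the 24 genes, 53.8-fold, belonged to another gene. Zm00001d052154 had 22.0 and 27.6 CPM in the chilled libraries, against 0 counts in both control libraries. Against a floor of 3 counts over the control group it was at least 35.1-fold higher (edgeR adjusted p 1.07e-07). Zm00001d011832 had 22.5 and 23.2 CPM when chilled, again with 0 control counts, and was at least 32.2-fold higher (edgeR adjusted p 1.56e-07). In neither gene did the groups overlap, as was the case for 66.4% of all IDs tested.

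The lowest fitted log2 fold changes belonged to Zm00001d011515 and Zm00001d043968. Zm00001d011515 had 0 counts in both chilled libraries, against 261.3 and 241.6 CPM (529 and 533 counts) in the controls. It was at least 333-fold lower at 4 °C, against a floor of 3 counts over the chilled group (edgeR adjusted p 2.62e-12). Zm00001d043968 had 0 and 1.97 CPM in the chilled libraries, against 90.4 and 100.2 CPM in the controls, a log2 fold change of -6.41 (SE 0.441, edgeR adjusted p 7.41e-10). Both genes were thus at the floor or near it at 4 °C and well measured in the control, and their replicates lay close together at each temperature. Both genes also parted between the chilled replicates of B104, and whether the plants behind each library were uniform at these genes was not tested.

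Among named genes, the largest rise was that of the plastid gene ycf3, an assembly factor of photosystem I. Its level was 51.7 and 66.5 CPM in the chilled libraries, against 6.42 and 5.44 CPM in the controls, a ratio of means of 9.97. The log2 fold change was 3.39 (SE 0.313, edgeR adjusted p 3.39e-08), and it stayed between 3.21 and 3.54 when any 1 of the 4 libraries was left out. Both chilled libraries stood far above both controls.

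The other plastid genes that passed the threshold moved the opposite way. The maturase gene matK, whose product helps to splice plastid introns, had 20.5 and 26.1 CPM in the chilled libraries, against 61.7 and 75.2 CPM in the controls. Its log2 fold change was -1.47 (SE 0.245, edgeR adjusted p 7.69e-05). The lysine transfer RNA gene trnK encloses matK in its intron, so that reads of matK and trnK may have been shared. It had 18.4 and 12.8 CPM when chilled, against 46.4 and 24.0 CPM in the control (log2 fold change -1.08, SE 0.329, edgeR adjusted p 0.0158). That call was lost without control replicate 1 (adjusted p 0.275) or chilled replicate 2 (0.0697).

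The level of atpF, which encodes a membrane subunit of the plastid ATP synthase, was 4.61 and 2.46 CPM in the chilled libraries, against 13.3 and 11.3 CPM in the controls. It fell by 1.71 on the log2 scale (SE 0.483, edgeR adjusted p 0.00969), a call lost without control replicate 1 (0.0534) or chilled replicate 2 (0.0933). The small photosystem I subunit psaJ had 5.63 and 2.96 CPM when chilled, against 7.41 and 26.7 CPM in the control. Control replicate 2 held most of the psaJ difference. The log2 fold change was -1.92 (SE 0.586, edgeR adjusted p 0.0209) with all 4 libraries and -0.71 (adjusted p 0.553) without control replicate 2, and without chilled replicate 1 the adjusted p was 0.0572. For petD, a subunit of the cytochrome b6f complex that links the photosystems, the level was 16.4 and 1.97 CPM when chilled and 21.7 and 6.35 CPM in the control. The replicates of petD spread more widely than the temperatures did (log2 fold change -0.52, SE 1.02, edgeR adjusted p 0.761). Its fall passed the threshold without control replicate 2 (adjusted p 0.0329) or chilled replicate 1 (0.0423).

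In sum over the plastid, 1 of 6 tested IDs rose and 4 fell. That was 83.3% of the class beside 31.8% of all IDs (17.6% higher, 14.2% lower). The median log2 fold change was -1.28 against 0.01 for all IDs tested. The low-count filter could be passed through 1 temperature alone. Among the 6, atpF (9 and 5 counts when chilled) and psaJ (11 and 6) passed it through their controls, so the class share and median are a description. DESeq2 called 1 higher, ycf3, and 1 lower, matK, and limma with voom called 1 higher and 3 lower, without psaJ (adjusted p 0.0647). Without control replicate 1 or chilled replicate 2, the number that fell was 2. Plastid IDs held 0.0121% and 0.0114% of counts in the chilled libraries and 0.0160% and 0.0151% in the controls. The remaining 151 plastid IDs had at most 6 counts over the 4 libraries and were not tested, so the plastid values describe the few transcripts that a poly(A)-primed library captured.

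**Figure D2:**
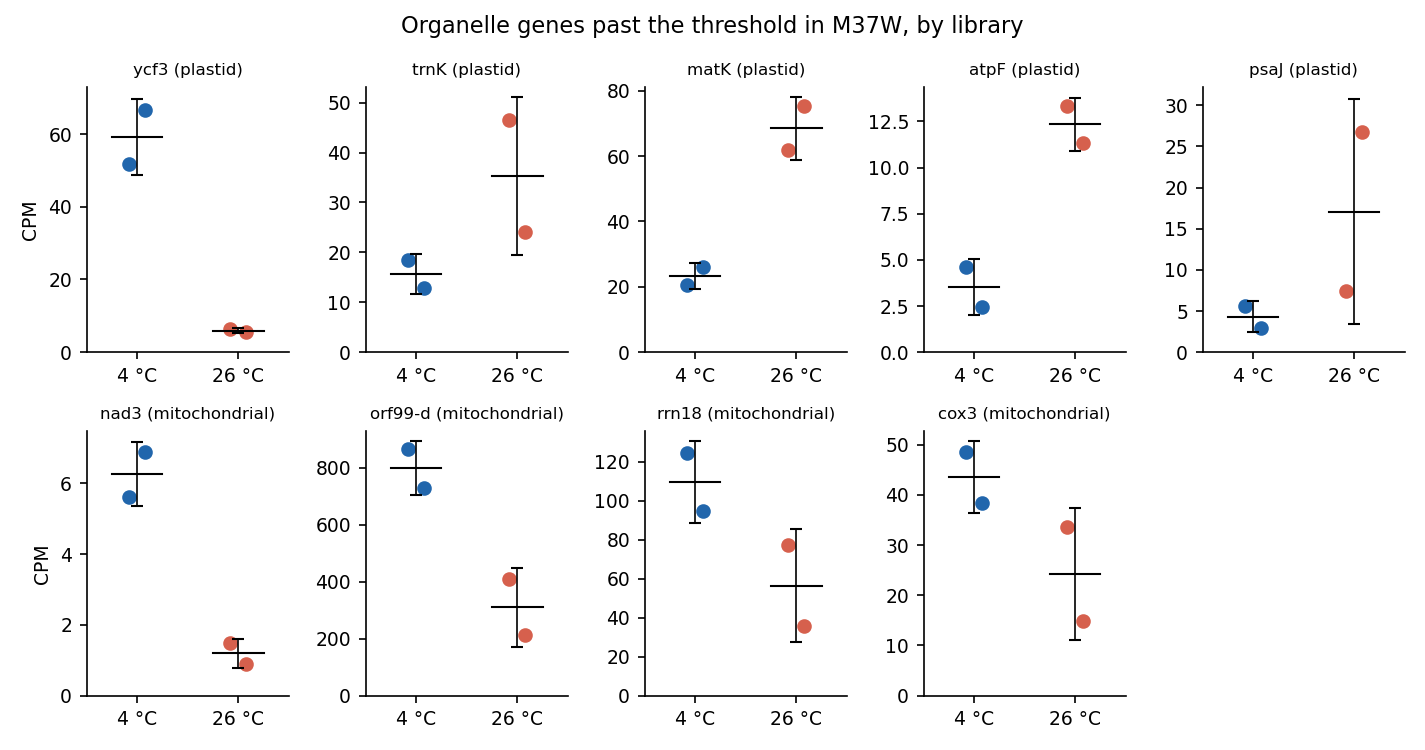
Level in CPM of the 9 organelle genes past the threshold in each M37W library (points), with the mean (line) and SD (bar, n = 2), chilled at the left and control at the right of each panel. The chilled points of ycf3, at 51.7 and 66.5 CPM, lie above its control points, while those of matK, trnK, atpF and psaJ lie below theirs, and the 4 mitochondrial genes lie higher when chilled.

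The mitochondrial transcripts that passed the threshold all rose. The open reading frame orf99-d, a reading frame with no assigned function, had 866.0 and 731.4 CPM in the chilled libraries, against 408.9 and 211.7 CPM in the controls. Its log2 fold change was 1.45 (SE 0.248, edgeR adjusted p 0.000824). The ribosomal RNA of the small mitochondrial subunit, rrn18, had 124.4 and 94.6 CPM when chilled, against 77.0 and 35.8 CPM in the control (1.05, SE 0.285, edgeR adjusted p 0.0129). The groups did not overlap in either gene, as was the case for 66.4% of all IDs tested. In both genes control replicate 2 was the lowest library.

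Among the subunits of the respiratory chain, cox3 and nad3 rose, while nad4 and cox1 missed the threshold. The level of cox3, a subunit of cytochrome c oxidase, was 48.6 and 38.4 CPM in the chilled libraries and 33.6 and 15.0 CPM in the controls (log2 fold change 0.94, SE 0.308, edgeR adjusted p 0.0247). The complex I subunit gene nad3 had 5.63 and 6.90 CPM when chilled, against 1.48 and 0.91 CPM in the control (2.43, SE 0.683, edgeR adjusted p 0.00929), and its control level was close to the floor. A second complex I subunit, nad4, had 37.4 and 23.7 CPM when chilled and 58.3 and 30.8 CPM in the control, and it missed the threshold (edgeR adjusted p 0.276). Its log2 fold change was -0.45, and -0.86 without control replicate 2 but 0.03 without control replicate 1. The call for nad3 was lost without any 1 of the 4 libraries (adjusted p 0.0601 to 0.163). Those for rrn18 and cox3 were lost without control replicate 2 (0.0829 and 0.339) or chilled replicate 1 (0.118 and 0.202).

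Over the class, 4 of 15 mitochondrial IDs rose (26.7%, beside 17.6% of all IDs called higher) and 0 fell (beside 14.2% called lower) in edgeR's test. At an unadjusted p under 0.05, 5 were higher and 0 lower. DESeq2 called 2 higher and 0 lower, and limma with voom 5 and 0. The median log2 fold change was 0.88 over the 15. Of these, nad3 (3 and 2 control counts) and orf140-b (9 and 7) passed the low-count filter through their chilled libraries. Replicate 1 held more mitochondrial RNA than replicate 2 at both temperatures, and the labels give same-numbered M37W libraries the same library number and plate column. Mitochondrial IDs took 0.244% and 0.179% of counts in the chilled libraries and 0.188% and 0.101% in the controls, so the groups overlapped. All 15 tested IDs were higher in control replicate 1 than in control replicate 2, by a median ratio of 1.89, and 14 were higher in chilled replicate 1 than in chilled replicate 2. Without control replicate 2, 1 mitochondrial ID rose and 2 fell, and without chilled replicate 1, 1 rose and 1 fell. Without control replicate 1 or chilled replicate 2, 6 rose and 0 fell.

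The 11 mitochondrial IDs that missed the threshold include both of the other ribosomal RNAs. The large-subunit RNA rrn26 had 570.1 and 359.8 CPM in the chilled libraries and 362.5 and 176.8 CPM in the controls (log2 fold change 0.88, SE 0.416, edgeR adjusted p 0.194). The groups of rrn26 overlapped, with chilled replicate 2 just below control replicate 1. Its log2 fold change was 1.45 without control replicate 1 and 1.19 without chilled replicate 2. The small ribosomal RNA rrn5 had 107.5 and 85.8 CPM when chilled and 153.1 and 89.7 CPM in the control (edgeR adjusted p 0.446). Genes for proteins of the mitochondrial ribosome were rps1, rps12 and rps7. The level of rps1 was 317.3 and 192.2 CPM when chilled and 264.7 and 155.0 CPM in the control (edgeR adjusted p 0.355), and the groups overlapped. The levels of rps12 (11.8 and 6.90 CPM chilled, 8.89 and 1.36 CPM control) and rps7 (15.9 and 13.8 CPM chilled, 19.3 and 9.06 CPM control) overlapped too. With 1 library left out, the log2 fold change ran from -0.06 to 0.77 for rps1 and from 0.14 to 2.77 for rps12. A further cytochrome c oxidase subunit, cox1, had 10.2 and 6.41 CPM when chilled and 10.4 and 9.06 CPM in the control, a log2 fold change of -0.14 (edgeR adjusted p 0.840). The groups did not overlap for the reading frame orf140-b (9.21 and 6.41 CPM chilled, 4.44 and 3.17 CPM control) or the transfer RNA pseudogene trnR-a (7.17 and 5.42 CPM chilled, 4.94 and 2.27 CPM control), which overlaps atp4. Neither passed the threshold (edgeR adjusted p 0.110 and 0.246), and the groups did not overlap for 66.4% of all IDs tested. The reading frame orf1159 had 11.3 and 0.99 CPM when chilled and 7.90 and 7.25 CPM in the control. Its log2 fold change was -2.81 without chilled replicate 1 and 0.67 without chilled replicate 2. The other 193 mitochondrial IDs had at most 42 counts over the 4 libraries and were not tested.

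The abundant transcripts were also set against the mitochondrial counts of the same library. The share of orf99-d was 35.5% (95% Wilson interval 34.1 to 36.8) and 40.8% (39.2 to 42.4) in the chilled libraries, against 21.8% (20.5 to 23.1) and 21.0% (19.4 to 22.8) in the controls. For ccmFN, which serves the maturation of cytochrome c, it was 10.1% (9.26 to 10.97) and 10.4% (9.44 to 11.4) when chilled, against 23.1% (21.8 to 24.4) and 23.3% (21.6 to 25.1) in the control. The ccmFN shares of replicates thus agreed within counting error while its CPM did not. Its level was 246.2 and 186.3 CPM when chilled and 433.1 and 234.3 CPM in the control, so the groups overlapped. The log2 fold change was -0.54 (SE 0.250, edgeR adjusted p 0.128), and it passed the threshold without control replicate 2 (-0.93, adjusted p 0.000105).

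A smaller share of mitochondrial counts in both chilled libraries was also seen for rrn5 and nad4. For rrn5 it was 4.40% and 4.78% when chilled and 8.15% and 8.91% in the control, and for nad4 it was 1.53% and 1.32% when chilled and 3.10% and 3.06% in the control. The gene for the ribosomal protein rps1 lies next to ccmFN in the RefSeq annotation of the mitochondrial genome. It took 13.0% and 10.7% of mitochondrial counts when chilled and 14.1% and 15.4% in the control. The share of rrn26 was 23.4% and 20.1% when chilled and 19.3% and 17.6% in the control. Shares of a whole depend on each other, and 2 libraries against 2 cannot give an exact two-sided permutation p below 0.333, so these shares are a description, made after the levels had been seen.

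**Figure D3:**
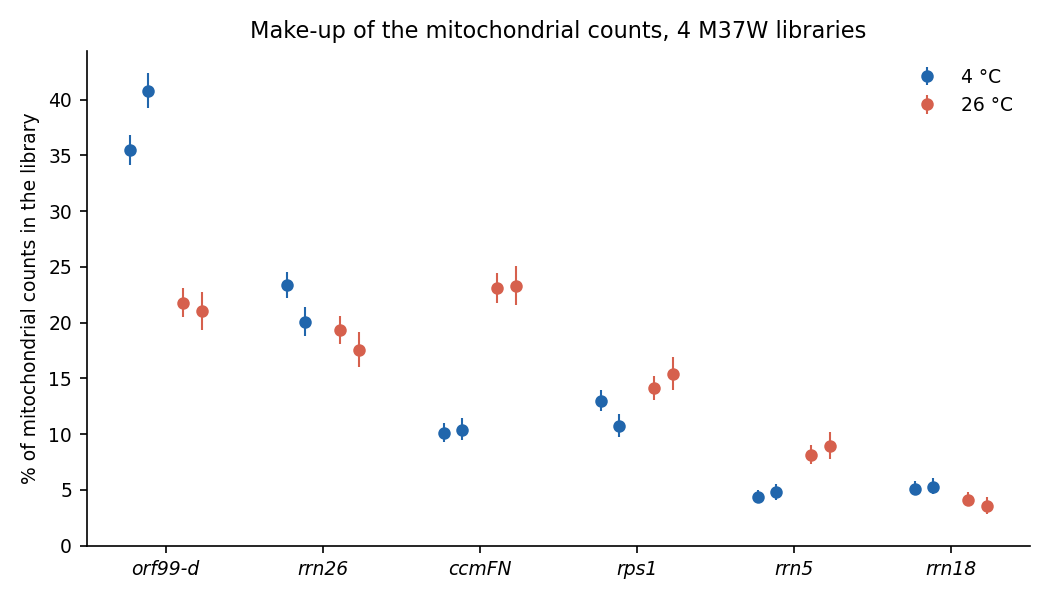
Share of each library's mitochondrial counts taken by the 6 named genes of highest average CPM in M37W, with 95% Wilson intervals, chilled libraries (blue) left of control libraries (red). The share of orf99-d is 35.5% and 40.8% when chilled and 21.8% and 21.0% in the control, while that of ccmFN is 10.1% and 10.4% when chilled and 23.1% and 23.3% in the control.

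Noncoding RNA IDs of Ensembl, a mixed class of small nuclear, nucleolar, transfer and ribosomal RNA models, had 40 tested members. Of these 8 rose (20%, beside 17.6% of all IDs called higher) and 0 fell (beside 14.2% called lower) in edgeR's test. At an unadjusted p under 0.05, 14 were higher and 2 lower. DESeq2 called 3 higher and 0 lower, and limma with voom 8 and 0. Without chilled replicate 1, 1 rose, and without control replicate 2, 5 rose and 3 fell. Without control replicate 1, 18 rose, and without chilled replicate 2, 15 rose and 1 fell. The class took 0.0957% and 0.0609% of counts when chilled and 0.0708% and 0.0474% in the control, so that here too replicate 1 was the higher library at both temperatures. The 154 microRNA IDs had 0 counts in the 4 libraries.

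The response of M37W was set beside that of B73 in 1 fit of their 8 libraries. The lines share no library. For the difference between these responses, edgeR called 1536 of 15174 IDs (10.1%), of which 682 were higher (4.49%) and 854 lower (5.63%) in M37W relative to B73. Among the 4218 genes called in M37W, 957 also differed from B73 by that test. The 4218 were chosen on M37W libraries that enter the test of the difference too, so the 957 are a description. Fitted alone, B73 had 3371 of 14449 IDs called (23.3%), 13.7% higher and 9.61% lower. The counts of B73 replicates differed more, with a chi-square per degree of freedom of 14.1 in the control and 9.07 when chilled. In M37W it was 3.74 and 3.62. The share called depends on this spread, so these shares do not rank the responses of the lines by size. Both fits together gave 12462 IDs tested in both, of which 3917 were called in M37W and 2742 in B73. They shared 1214 genes with the same direction, 31.0% of the M37W list and 44.3% of the B73 list, and 257 were called in opposite directions (6.56% and 9.37%). The overlaps that the numbers of calls alone would give were not computed, so neither number is read as high or low.

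Of the 6 plastid IDs, 0 differed between the responses in edgeR's test, with 0 higher and 1 lower at an unadjusted p under 0.05, and DESeq2 called 0. In B73, ycf3 had 210.3 and 353.3 CPM when chilled and 15.9 and 26.8 CPM in the control. The M37W response of ycf3 minus that of B73 was -0.64 (SE 0.549, edgeR adjusted p 0.513). For matK it was 1.001 (SE 0.560, edgeR adjusted p 0.289), with 5.37 and 18.0 CPM in chilled and 94.5 and 61.8 CPM in control B73. These results turned on the chilled B73 libraries, which differed widely in atpF (1.65 and 56.2 CPM) and trnK (4.96 and 101.1 CPM). Without chilled B73 replicate 1 the differences of atpF and trnK passed the threshold (-6.36 and -4.04, edgeR adjusted p 1.37e-05 and 7.74e-05), and without chilled B73 replicate 2 that of matK did (2.10, adjusted p 0.0251).

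Of the 19 mitochondrial IDs tested in that fit, 1 was higher and 0 were lower in M37W relative to B73, or 5.26% beside 10.1% of all IDs (4.49% higher, 5.63% lower). It was rbcL-ct, a plastid-derived copy of the Rubisco large subunit gene in the mitochondrial genome, chosen after its values were seen. It had 20 and 6 counts in chilled and 3 and 8 in control M37W, and 2 and 1 counts in chilled and 29 and 8 in control B73 (log2 difference 4.36, SE 1.22, edgeR adjusted p 0.0304). DESeq2 called 1 of the 19 higher and 0 lower, and its call was orf99-d, not rbcL-ct. Reads of such a plastid-derived copy may be shared with the plastid gene.

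The gene orf99-d moved in opposite directions in the lines fitted alone. In B73 it had 216.9 and 899.3 CPM when chilled and 2890 and 2107 CPM in the control, a log2 fold change of -1.85 (SE 0.590, edgeR adjusted p 0.0463). In the fit of both lines together, neither change of orf99-d passed the threshold (edgeR adjusted p 0.171 in M37W and 0.0681 in B73). The difference, M37W minus B73, was 3.27 (SE 0.898) and missed the threshold in edgeR (adjusted p 0.0635), while DESeq2 called it (0.0253). It passed in edgeR without chilled B73 replicate 1 (2.57, adjusted p 0.00191) or chilled B73 replicate 2 (4.71, adjusted p 3.77e-05). Within the mitochondrial counts its share was 30.3% and 42.5% in chilled B73 and 81.6% and 73.04% in control B73. The chilled libraries of both lines thus lay between 30.3% and 42.5%, and the controls lay on opposite sides of that range. The difference for ccmFN was 2.53 (SE 0.723, edgeR adjusted p 0.0516), and it passed without control B73 replicate 2 (0.0143), chilled B73 replicate 2 (0.0192) or control M37W replicate 1 (0.0354).

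**Figure D4:**
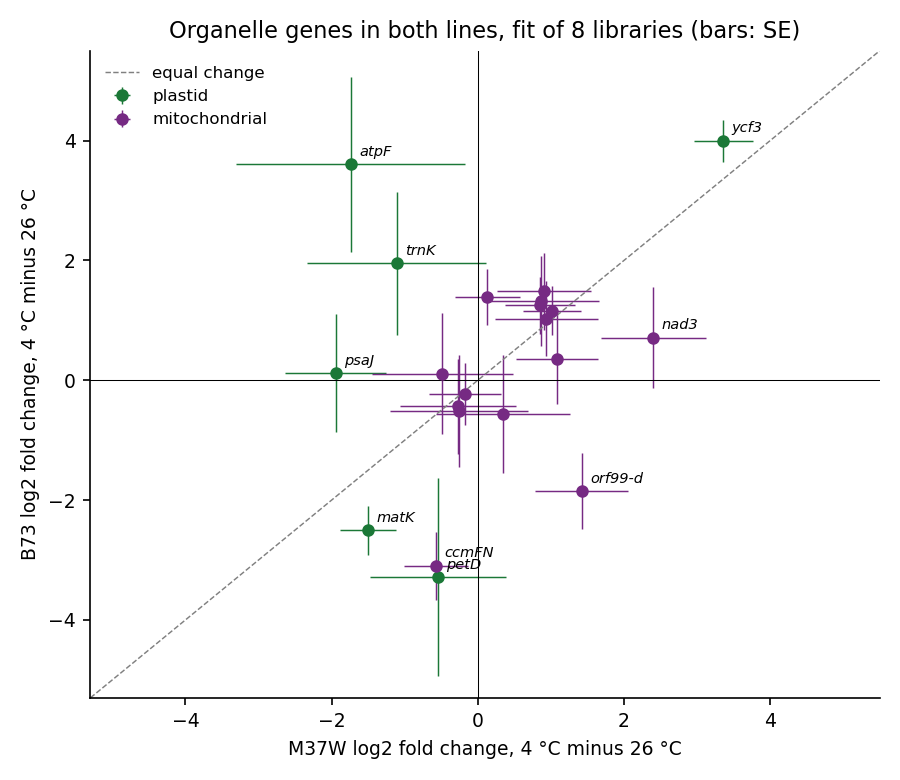
Log2 fold change (4 °C minus 26 °C) of the 21 organelle genes tested in M37W, in M37W (x axis) and in B73 (y axis), from 1 edgeR fit of the 8 libraries of both lines, with SE as bars and a dashed line of equal change. The gene ycf3 lies high in both lines, and orf99-d lies right of 0 in M37W and below 0 in B73.

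The pair of nuclear genes with the lowest fitted fold changes in M37W moved the other way in B73. Zm00001d011515 had 983.9 and 470.7 CPM in chilled and 322.2 and 91.8 CPM in control B73 (log2 fold change 2.10 in the fit of B73 alone, SE 0.535, edgeR adjusted p 0.0174). Its response in M37W minus that in B73 was -14.23 (edgeR adjusted p 0.00141), a value that depends on the prior count because chilled M37W had 0 counts. Zm00001d043968 had 929.8 and 499.9 CPM in chilled and 392.3 and 133.4 CPM in control B73 (1.73, SE 0.461, edgeR adjusted p 0.0172), and its difference was -8.18 (SE 0.954, edgeR adjusted p 0.000648). Zm00001d052154 had 6.61 and 10.1 CPM in chilled and 0 and 0.41 CPM in control B73, and Zm00001d011832 had 3.72 and 0 CPM in chilled and 0.39 and 0 CPM in control B73. Both genes of this pair were chosen by their fall in M37W, and those libraries enter the test of the difference too. Their differences are therefore a description. In the fit of all 16 libraries, the differences of Zm00001d011515 and Zm00001d043968 missed the threshold (edgeR adjusted p 0.107 each). The differences of Zm00001d052154 and Zm00001d011832 missed the threshold (edgeR adjusted p 0.369 and 0.305).

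**Figure D5:**
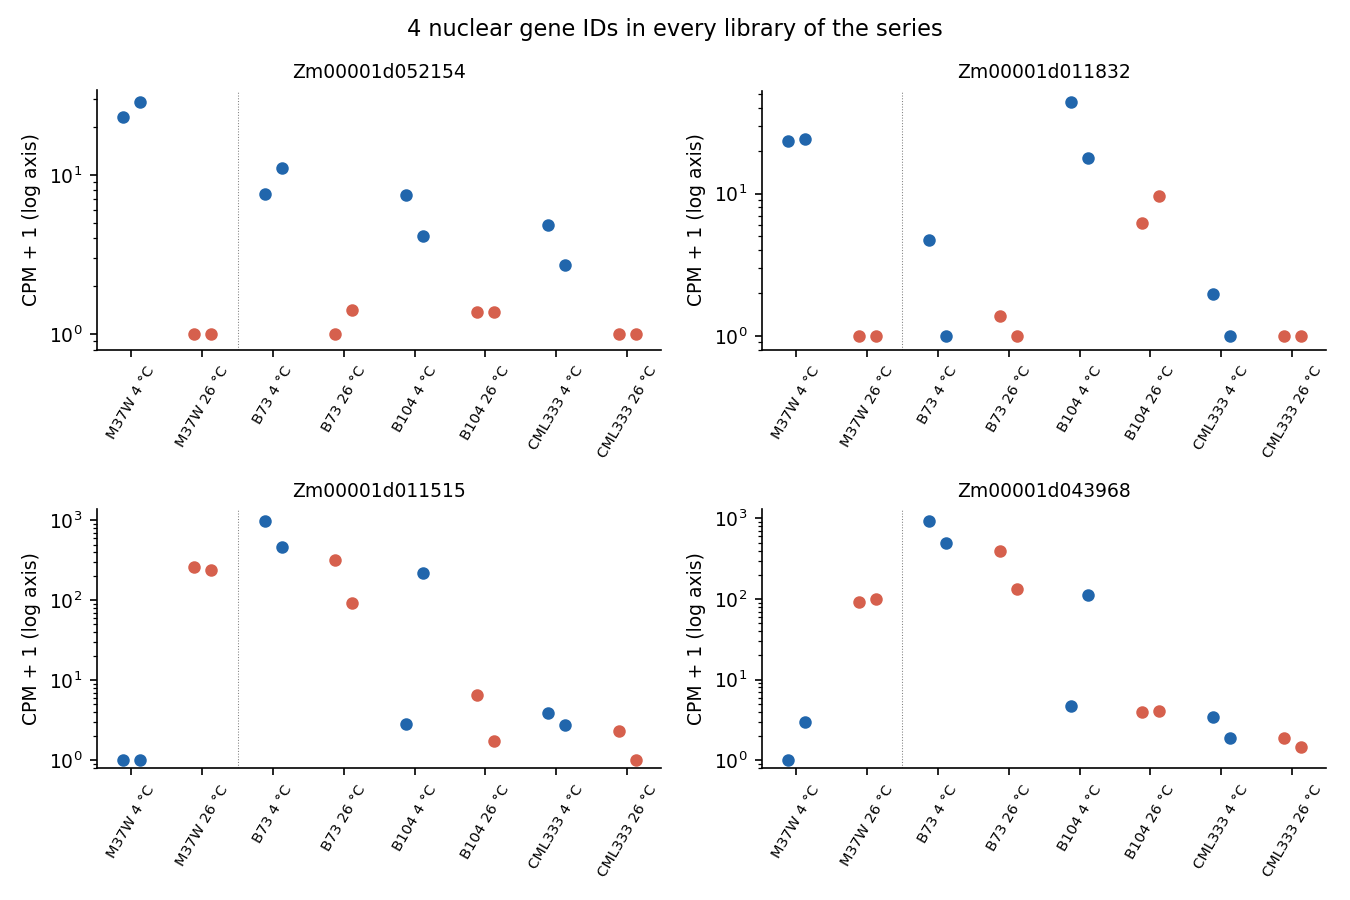
Level (CPM + 1, log axis) of the 4 nuclear genes at the ends of the fitted fold changes in M37W, in each of the 16 libraries, with the chilled group left of the control group of each line and M37W at the left. Zm00001d011515 and Zm00001d043968 are at or near 0 in chilled M37W and between 90.4 and 261.3 CPM in control M37W, and in B73 they are higher when chilled.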

How the data were processed

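The authors deposited 1 table of whole-number counts per gene ID and library, and the counts are not normalized. STAR and edgeR are named in the submitters' processing notes, with no version or order. The build, annotation, strand setting and treatment of multiply aligned reads are not stated in the labels, so reads shared with near-identical copies, such as nuclear copies of organelle DNA, or with overlapping genes are uncertain. Of the 46430 IDs, 44146 are nuclear gene models, and 0 of these matched the RefSeq gene table (Zm-B73-REFERENCE-NAM-5.0). Symbols of organelle genes come from that table by locus tag. The authors' scaled tables per line were not used.

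The 4 M37W libraries were fitted alone in edgeR 4.0.16 (R 4.3.3) with filterByExpr, trimmed mean of M-values (TMM) scaling, robust quasi-likelihood dispersion and a two-sided F test. TMM factors ran from 0.963 to 1.04, and the common coefficient of variation was 0.141. The SE is the absolute log2 fold change divided by the square root of F. CPM values use library totals without TMM. Replicates differed beyond counting noise in every group (chi-square per degree of freedom of 3.62 or more), so none was treated as a duplicate. The code was tested on simulated data.

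Genes were named by rule. Values were to be given for organelle symbols called in M37W and for the 6 named genes of highest average CPM, with the 2 nuclear IDs of highest and the 2 of lowest log2 fold change among called genes with libraries that did not overlap and at least 10 CPM on average in the higher group. The other organelle genes are given to account for every one tested, and these were added after their values were seen. Of 40 lists of pathway and cell type genes fixed by symbol, 0 had a tested member, and promoter motifs were not analysed here. Members and lists were chosen with earlier results of these data known. Alternatives used DESeq2 1.42.0 and limma 3.58.1 with voom, other scalings, filters and thresholds, libraries left out in turn, a replicate block and larger fits.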

Additional observations from a re-analysis of the deposited data

Results flagged for a closer look

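The responses of M37W and B73 to chilling differed at 1536 of 15174 IDs by edgeR's test of the difference in their 8 libraries. Among the 4 nuclear genes described here, that test called Zm00001d011515, whose M37W response minus its B73 response was -14.23 on the log2 scale, and Zm00001d043968, at -8.18. Each of the 2 genes was lower in both chilled M37W libraries than in both M37W controls and higher in both chilled B73 libraries than in both B73 controls. The 2 genes were chosen by their fall in M37W, and those libraries enter the test of the difference too. Their differences are therefore a description.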

How the results depend on the processing

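With 2 libraries per temperature, the spread of a gene rests on what edgeR borrows from other genes. The 4218 genes called in M37W (2334 higher, 1884 lower) became 2475 with DESeq2 (1483 and 992), 2731 at an adjusted p under 0.01 (1135 lower), 2792 with a fold of at least 2 (1195 lower) and 71 in a fit of all 16 libraries (42 and 29), where the spread of other lines enters. That fit also ended the calls of all 9 organelle genes (adjusted p 0.083 for ycf3 to 0.711 for cox3) and of both nuclear genes that fell (0.0551). The fit with B73 called 2864 of 15174 IDs for M37W (1597 higher, 1267 lower). It ended the calls of orf99-d, rrn18, cox3, trnK, atpF and psaJ (edgeR adjusted p 0.0614 to 0.606). DESeq2 ended those of nad3, cox3, trnK, atpF and psaJ (0.0519 to 0.107), while limma with voom ended that of psaJ (0.0647) and added rrn26 (0.00775). Without 1 library, 2837 to 3670 genes were called, 1597 to 2039 higher and 1240 to 1631 lower. The 1536 differences from B73 (682 higher, 854 lower) became 630 at an adjusted p under 0.01 (250 and 380) and 1 in the fit of all 16 (0 and 1), and 730 to 1885 without 1 library (287 to 867 higher, 433 to 1054 lower). They were fewest without an M37W library: 953 and 730 without control replicates 1 and 2, 765 and 898 without chilled replicates 1 and 2. The causes of these moves were not tested. A replicate block, by the numbers in the titles, gave 4899 calls in M37W and 1558 differences. Under it rrn26 (adjusted p 7.6e-08) and ccmFN (0.00882) also passed, as did the difference of atpF from B73 (0.0383). Deviations of same-numbered M37W libraries correlated at 0.122 across genes, and the labels give these pairs the same library number and plate column without saying what the number marks. Under the other scalings, filters and tools the total numbers called stayed within 1.5 times. Library totals alone, added after the data were seen, turned the balance to 2029 higher and 2195 lower. Numbers for small classes could move further. The Ensembl noncoding IDs that rose went from 8 to 15 without a low-count filter and to 13 at 1 CPM or more in 2 libraries. The 24 and 4 genes on at 1 temperature became 9 and 1 with 0 counts required (added after the data were seen), and up to 82 and 20 when 1 library of the silent group was left out.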

Other observations

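Zm00001d011515 and Zm00001d043968 were high or low in the same libraries across the series. In B104 they stood at 217.2 and 109.7 CPM in chilled replicate 2, at 1.85 and 3.70 CPM in chilled replicate 1, and at no more than 5.54 and 3.03 CPM in the controls. In the CML333 libraries neither exceeded 2.88 CPM. Control M37W, all B73 libraries and 1 chilled B104 library thus held transcripts of both genes at 90.4 CPM or more, and the other libraries held little or none. The values are those of single libraries where replicates part, and whether the plants behind each library were uniform at these genes was not tested.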
